A study of Mus musculus with 42 samples.

Results

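The genes described here encode the proteins of the mouse cytosolic ribosome. They were taken by name: a row of both count tables was a member when its symbol was Rpl or Rps followed by a number, with an optional final a, x or y, or was Rplp0, Rplp1, Rplp2 or Rpsa. Processed copies with a -ps suffix, the tissue-restricted relative Rpl10l and the Rps6 kinases were left out. This gave 76 of the 48321 names, with 30 of the small subunit, 43 of the large subunit and 3 of the stalk (Rplp0, Rplp1 and Rplp2). The filter on low counts kept 74 of them in both tables, and every count of members called is out of these 74. The exceptions, Rpl13 and Rpl24, had 0 to 1 counts. Other genes annotated on the same strand in GENCODE M21 cover all of the Rpl13 mRNA (Gm20388) and 89.96% of the Rpl24 mRNA (Gm28037). Reads there fall in more than 1 gene, and reads that fit several genes were not assigned. The part of this overlap in the low counts was not tested, and nothing can be said of these 2 genes.

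The study followed mouse embryonic fibroblasts (MEF) through late reprogramming to induced pluripotent stem cells (iPSC) by RNA-seq, with 42 libraries in 14 groups of 3, split over 2 sequencing batches that were counted into separate tables. The first table holds the groups labelled naivex2 (nx2 in the plots): male cells with 1 copy each of an mCherry and a GFP transgene (Tg(mCherry)/wt; Tg(GFP)/wt), from a B6; 129S4-Tg(Tet1-mCherry)B37Koh parent and a B6;CBA-Tg(Pou5f1-EGFP)2Mnn/J parent. These are day 0 MEF, mCherry+/GFP- cells of days 10, 12 and 14, mCherry+/GFP+ cells of days 12 and 14, and iPSC lines. The second table holds the groups labelled totalx2 (tx2 in the plots), also male and Tg(mCherry)/wt; Tg(GFP)/wt but built from Tet1tm1.1Koh on B6 and B6;129S4-Pou5f1tm2Jae/J: mCherry+/GFP- cells of days 8, 10 and 12 and mCherry+/GFP+ cells of days 10 and 12. The title of replicate 2 of day 12 GFP- lacks the mark for mCherry that those of its group carry, and its group was taken from its other labels. It also holds male iPSC lines of a Tet1tm1Koh cross with the same Pou5f1-EGFP transgene as the naivex2 cells, wild type (wt/wt;GFP/wt) and TET1 knockout (mut/mut;GFP/wt). Sorted cells thus report Tet1 by mCherry and Pou5f1 by GFP, the replicates are 3 independent lines per system, each iPSC sample is a clone grown on feeders and then depleted of them, and the delivery of the reprogramming factors is not given in the sources used here. All comparisons were made within a table.

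Each ribosome carries 1 copy of nearly every one of these proteins, built on ribosomal RNA into a small subunit that reads the message and a large subunit that joins amino acids, with the Rplp proteins forming a stalk that recruits translation factors. Their mRNAs begin with a run of pyrimidines, the TOP motif, through which mTORC1 and the RNA-binding protein Larp1 set how much of each is translated, and their transcription is tied to growth and to Myc. Pluripotent cells are known for short cell cycles and a high demand for ribosome assembly, while surplus Rpl5 and Rpl11 outside the ribosome restrain Mdm2, the ligase that degrades p53.

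Promoters of 56 of the 76 members were matched in RefSeq (GRCm38.p6), 8 of them with several starts. The letters CTTTCC, a short pyrimidine run of the TOP kind, were found on the sense strand between 20 bases before and 30 bases after the start in 11 of these 56 (19.64%), against 2.83% of 27025 genes searched in the same window. On either strand of the 300 bases around the start it was in 29 of 56 (51.79%) against 29.32%. CCGGAAG, the core bound by ETS factors such as Gabpa, was in 5 of 56 (8.93%) on the sense strand of the short window against 1.98% of all genes, and in 23 of 56 (41.07%) on either strand of the 300 bases against 9.93%. TATAAA was in 3 of 56 (5.36%) on the sense strand of the short window against 0.97%, Rplp0 shown here among them, and in 6 of 56 (10.71%) on either strand of the 300 bases against 15.67%, so its order depends on the window. The 3 motifs share no run of letters long enough for one match to count as another, a match describes letters and not a site in use, and the absence of a match says only that these letters are not in this window. Shown first are 4 members with CTTTCC (in capitals) that recur in the results below, Rpl4 at chr9:64173367-64173416 on the + strand, Rpl28 at chr7:4792945-4792994 on the + strand, Rpl35 at chr2:39005102-39005151 on the - strand and Rpl13a at chr7:45128716-45128765 on the - strand; then 3 without it, Rpl22 at chr4:152325706-152325755, Rpl12 at chr2:32961692-32961741 and Rplp0 at chr5:115559447-115559496, all on the + strand. Each runs 5′ to 3′ from 20 bases before the RefSeq start. In Rpl4 all the capitals lie before that start and in Rpl35 nearly all do, so a match need not be in the annotated mRNA.
Rpl4: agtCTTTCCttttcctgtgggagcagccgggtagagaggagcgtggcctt
Rpl28: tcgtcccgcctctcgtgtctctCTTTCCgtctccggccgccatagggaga
Rpl35: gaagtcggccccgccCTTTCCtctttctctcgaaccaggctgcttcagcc
Rpl13a: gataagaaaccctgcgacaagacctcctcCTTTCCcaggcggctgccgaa
Rpl22: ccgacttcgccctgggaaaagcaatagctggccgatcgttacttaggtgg
Rpl12: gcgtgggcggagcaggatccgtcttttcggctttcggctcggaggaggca
Rplp0: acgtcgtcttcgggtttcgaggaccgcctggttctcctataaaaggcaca

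Library totals ran from 6540256 to 20783265 counts, so 3 counts, taken as the floor of detection, correspond to 0.139 to 0.444 CPM (counts relative to the scaled library total), far below every tested member, whose lowest value was 28.8 CPM (Rpl29). In the 8 fibroblast markers (among them Col1a1, Thy1 and Vim) the summed level was 20850 to 21708 CPM in MEF, and in the 8 pluripotency markers (among them Nanog, Esrrb and Pou5f1) it was 1.77 to 2.82 CPM, with Dppa4 at 0. The iPSC of both tables had 2924 to 4084 CPM of the pluripotency markers, so these markers part MEF from iPSC as labelled. Naivex2 day 14 cells had 2998 to 3234 CPM without GFP and 3998 to 4214 CPM with GFP. The sum therefore does not set iPSC apart from the later naivex2 groups. Some libraries stood apart. Mitochondrially encoded genes took 8.99% of counts in replicate 1 of naivex2 day 10 GFP- and 12.2% in replicate 1 of wild type iPSC, against 1.75 to 4.02% in the other 40 libraries, and the counts of members called or not overlapping in comparisons that hold them are also given without both. In bulk samples, fewer cells of a type and less RNA per cell cannot be told apart.

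The members together took 2.53 to 2.64% of all counts in MEF and a larger share in every later naivex2 group. Their share was 3.51, 4.41 and 4.43% in day 10 GFP- cells, 4.55 to 4.88% in day 12 GFP- cells and 4.69 to 5.32% in day 12 GFP+ cells, the group with the highest mean (5.07%). It was 3.71 to 4.05% in day 14 GFP- cells, 3.95 to 4.27% in day 14 GFP+ cells and 3.74 to 4.25% in iPSC. In the totalx2 system the share moved within a narrower band, from 3.61 to 3.77% in day 12 GFP- cells to 4.09 to 4.31% in day 12 GFP+ cells, with the other 3 groups between 3.73 and 4.14%. Knockout iPSC had 3.71 to 4.17%, and wild type iPSC had 2.56, 4.30 and 3.68%, the low value belonging to the library with 12.2% mitochondrial counts.

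**Figure D1:**
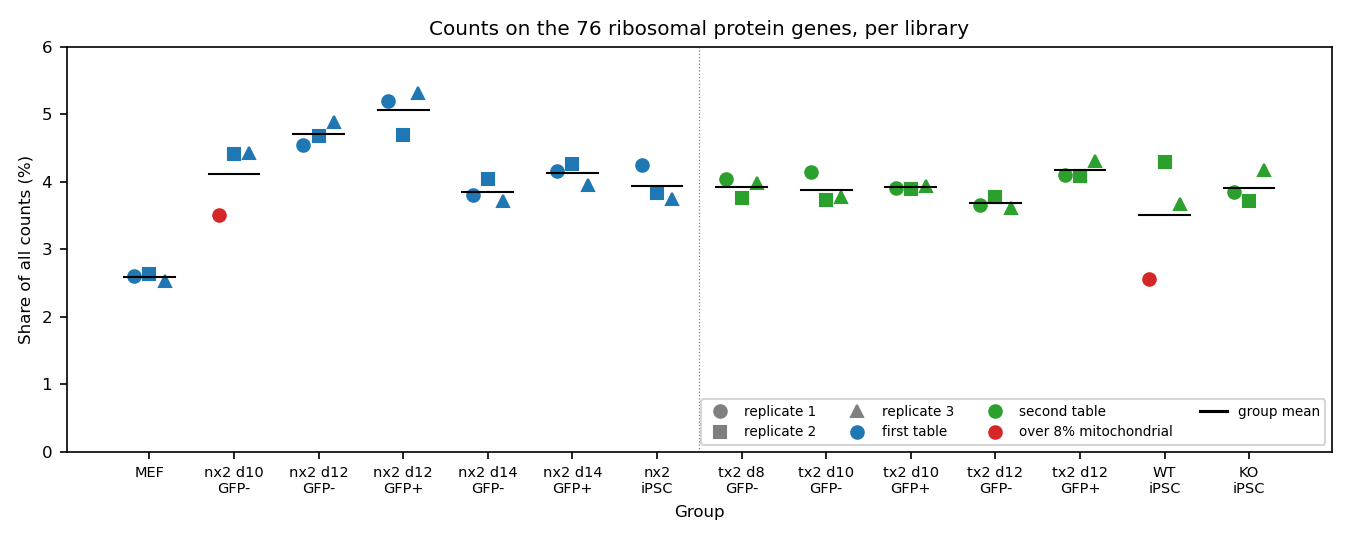
Share of all counts (%, vertical axis) taken by the 76 ribosomal protein genes in each library, by group along the horizontal axis, with marker shapes for replicates, the first table in blue, the second in green, the 2 libraries over 8% mitochondrial counts in red and bars for group means. MEF sit at 2.53 to 2.64%, below every other library of the first table, and naivex2 day 12 GFP+ cells reach 5.32%.

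Single members followed this course closely in the first table. Day 12 GFP+ cells had the highest group mean for 67 of 74 members and MEF the lowest for 66 of 74. Rpl41 was the steadiest (SD of the 7 group mean log2 levels 0.055): its libraries ran from 401 to 420 CPM in MEF and from 396 to 458 CPM in day 12 GFP+ cells, and these groups overlapped. Rps21, Rpl22 and Rps14 varied most (SD 0.35, 0.34 and 0.32), and without the high-mitochondrial library Rps21, Rpl22 and Rpl3 did (0.37, 0.35 and 0.33). Rps21 had 253, 240 and 249 CPM in MEF, 500, 467 and 525 CPM in day 12 GFP+ cells and 360, 336 and 302 CPM in iPSC, with no overlap among these 3 groups. In the second table the highest group mean was in day 12 GFP+ cells for 33 members, in wild type iPSC for 16 and in knockout iPSC for 15, and the lowest was in day 12 GFP- cells for 31 and in wild type iPSC for 31. Without the 2 high-mitochondrial libraries, the lowest in the second table was in day 12 GFP- cells for 39 and in wild type iPSC for 5, and the highest in day 12 GFP+ cells for 26 and in wild type iPSC for 21, while for naivex2 groups 68 members were highest in day 12 GFP+ cells and 67 lowest in MEF. Across the 7 groups, the correlation of a member with the mean of the other members had a median of 0.925 in the first table and 0.577 in the second, described here over 7 points that share libraries and scaling, and of 0.958 and 0.741 without the 2 libraries. Rpl13a (0.333 in the first table and -0.186 in the second) and Rpl29 (-0.308 in the second) were least like the rest, at 0.458, -0.468 and 0.037 without the 2 libraries.

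**Figure D2:**
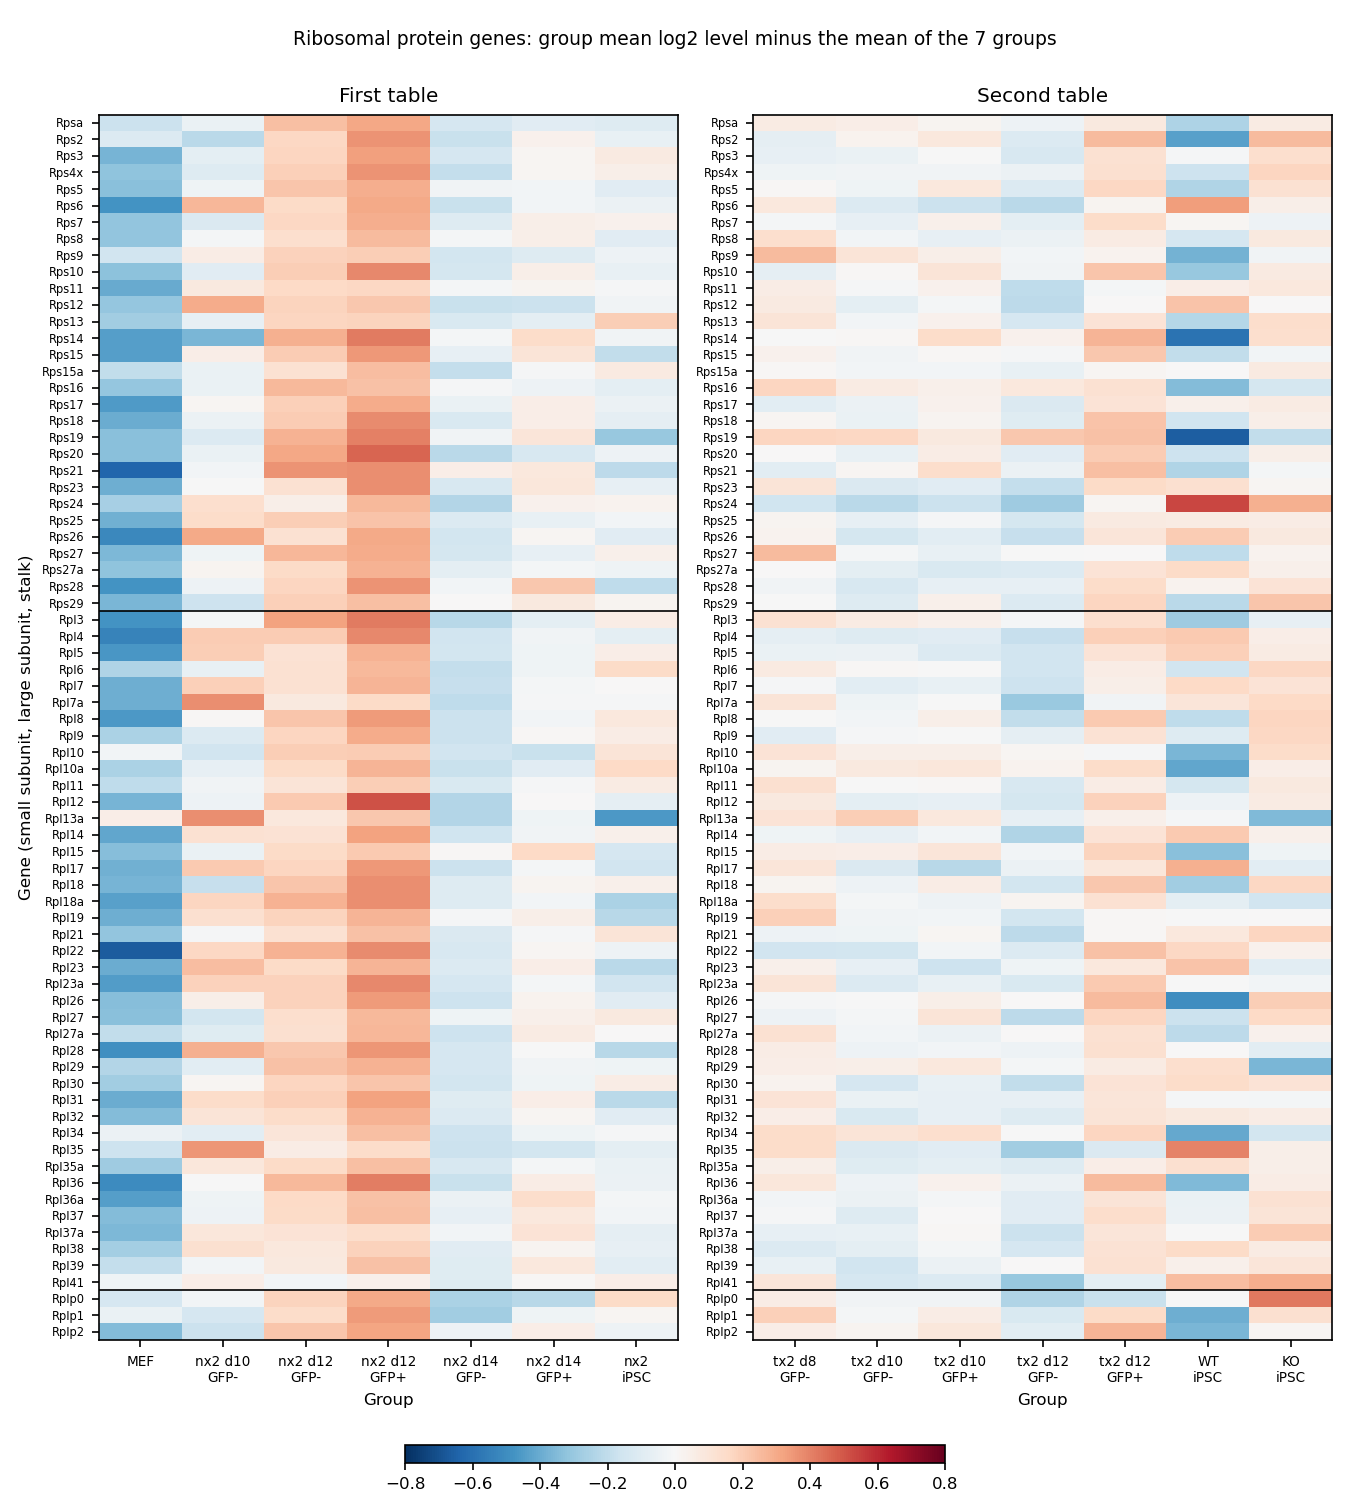
Group mean log2 level of each tested member minus the mean of its 7 groups (colour), with genes of the small subunit, large subunit and stalk as rows and the groups of each table as columns. Of the 74 members, 67 are highest in day 12 GFP+ cells and 66 lowest in MEF in the first table; the second table shows smaller differences.

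Levels were compared per kilobase, and their order depends on which length is used, since reads were counted over whole gene bodies. Per kb of coding sequence, Rpl41, the shortest ribosomal protein with 75 coding bases in an mRNA of 437, had the highest level (5624 CPM per kb in the first table and 5295 in the second), but per kb of mRNA it ranked 17 of 74 (965 and 909). Rplp1 had 3463 and 3249 CPM per kb of coding sequence and the highest level per kb of mRNA (2374 and 2227), while the median member had 1017 and 972 by the first measure and 645 and 624 by the second. Rpl29 (120 and 98.5 CPM per kb of coding sequence), Rpl13a (130 and 145) and Rpl21 (220 and 213) were lowest by both. Reads of a member that fit a near-identical processed copy equally well would be lost or assigned to the copy, which limits how these low values can be read.

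The first comparison asked how the GFP- cells of day 10, the earliest sorted naivex2 group, differ from the MEF they came from. Ribosomal protein mRNAs were mostly higher: 50 of 74 members rose and 0 fell, beside 38.8% of the 16132 genes tested that were called higher and 37.6% called lower. The median log2 difference of the members was 0.34, beside 0.06 for all genes tested, and 70 of 74 values were above 0. Of the small subunit 20 of 30 rose (median 0.32), of the large subunit 30 of 41 (median 0.41) and of the stalk 0 of 3. Without the 2 libraries of high mitochondrial share, 69 members rose and 0 fell (median 0.47), beside 38.8 and 37.1% of genes. Day 10 libraries lay wholly above the MEF libraries for 40 members and wholly below for 0, beside 38.4 and 38.6% of genes, and for 73 and 0 without the high-mitochondrial library, beside 44.3 and 42% of genes; a group then has 2 libraries, which makes non-overlap more common.

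Rpl22, a large subunit protein that also binds viral and cellular RNA hairpins, had 310, 313 and 310 CPM in MEF and 580, 520 and 560 CPM at day 10. Every day 10 library was higher than every MEF library, by a log2 difference of 0.83 ± 0.07 (SE; adjusted p = 1.4e-09, edgeR quasi-likelihood test). Rpl4, a large subunit protein lining the exit tunnel and the member with the highest counts, went from 1737, 1790 and 1719 CPM to 3352, 2681 and 2751 CPM (0.74 ± 0.08, edgeR adjusted p = 2.2e-08), again without overlap. Rps26, a small subunit protein at the mRNA exit channel, had 325, 334 and 319 CPM in MEF and 763, 496 and 500 CPM at day 10 (0.85 ± 0.12, edgeR adjusted p = 1e-06), and its replicate 1 stood far above the other two. Rpl28 (0.80), Rpl7a (0.78) and Rps6 (0.77), the small subunit protein phosphorylated by S6 kinases, had the same high replicate 1, with Rps6 at 675, 445 and 442 CPM. Without that library these differences were 0.63 for Rps26, 0.62 for Rpl28, 0.61 for Rpl7a and 0.56 for Rps6, all still called, while Rpl22 stayed at 0.82 and Rpl13a went from 0.34 to 0.15 (edgeR adjusted p = 0.11).

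The proteins of the stalk and Rpsa, the small subunit protein that doubles as a laminin receptor, did not pass the test. Rplp0 had 1368, 1411 and 1360 CPM in MEF and 1148, 1701 and 1707 CPM at day 10, so that the groups overlapped through replicate 1. Its difference was 0.14, with Rplp1 at -0.05, Rplp2 at 0.23 and Rpsa at 0.14. Measured against the members' own summed counts in place of all genes, 11 members rose and 13 fell, beside 26.5 and 47.5% of genes, and without the high-mitochondrial library 9 rose and 12 fell, beside 24.2 and 49.3%. Rps26 was at 0.49 with all libraries and 0.17 without that one, Rpl28 at 0.44 and 0.15, and Rpl22 at 0.46 and 0.35. Rpl10 was at -0.47 and -0.25, Rps2 at -0.44 and -0.22, and Rplp1 at -0.45 and -0.32. Without that library the largest relative rise was that of Rps21 (0.39) and the largest relative fall that of Rpl34 (-0.36). MEF libraries also had lower TMM factors (0.815 to 0.830, the library scaling of edgeR) than the others of the table. Under unscaled library totals the median over all tested genes was 0.34 in place of 0.06, and that over the members was 0.62 in place of 0.34. Summed fibroblast markers were 807 to 1326 CPM at day 10 against at least 20850 in MEF, and their part in the result was not tested.

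Other genes of the translation machinery came from general lists of gene names and name patterns. In this comparison 38.8% of all genes tested were called higher and 37.6% called lower. Of 18 translation factors with TOP mRNAs 13 rose and 0 fell (median 0.34), with Eif3l at 0.82 and Eif3k at 0.76, both subunits of the initiation factor that holds the small subunit. Of 40 ribosome assembly genes 34 rose and 1 fell (median 0.64): Nat10, which acetylates ribosomal RNA, went from 91.9 ± 2.7 to 212 ± 7.0 CPM (SD, n = 3), and Nhp2 (1.39) and Dkc1 (1.27), of the complex that makes pseudouridine, also rose. Of 74 mitochondrial ribosomal proteins tested 47 rose and 6 fell (median 0.35). Of 54 tested names with the -ps suffix, 20 rose and 0 fell, a share of rises near that of all genes.

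At day 14, the GFP- cells that had not turned on the Pou5f1 reporter had lower ribosomal protein mRNAs than at day 10. The course between was no steady fall. The mean log2 level of the members was 8.82 at day 10, which holds a high-mitochondrial library, 8.97 at day 12 and 8.68 at day 14. From day 10 to day 14, 23 members fell and 0 rose, beside 16.5% of genes called lower and 20.3% called higher. The median log2 difference was -0.13 against 0.03 for all genes. Of the small subunit 6 of 30 fell and of the large subunit 17 of 41. The libraries of day 14 lay wholly below those of day 10 for 25 members and wholly above for 0, beside 19.9 and 25.8% of genes. With replicate 1 of day 10 left out for its mitochondrial counts, 53 members fell and 0 rose (median -0.25), beside 16.1% of genes called lower, and libraries lay wholly below for 67 and wholly above for 0, beside 28.6 and 33.4%.

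Rpl13a, a large subunit protein also known from a complex that silences inflammatory mRNAs, had 130, 87.3 and 89.8 CPM at day 10 and 68.3, 63.5 and 66.7 CPM at day 14. It fell by 0.63 ± 0.12 (edgeR adjusted p = 0.00028), and without replicate 1 of day 10 the difference was -0.43. Rpl7a (-0.59), Rpl35 (-0.58) and Rps12 (-0.50) also fell and were -0.41, -0.25 and -0.29 without that library, so their size, not their direction, rested on it. Rpl22 went from 580, 520 and 560 CPM to 447, 466 and 444 CPM, with no overlap, and fell by 0.29 ± 0.07 (edgeR adjusted p = 0.0037). Rpl38, which is needed for the translation of Hox mRNAs, had -0.22 with all libraries and -0.15 without that library, when it was no longer called (edgeR adjusted p = 0.17). Rpl35a was lost in the same way (edgeR adjusted p = 0.056).

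Beside them, 14 of 18 translation factors fell and 0 rose (median -0.29), with Eif4b at -0.71 and Npm1 at -0.63. Of 40 assembly genes 30 fell and 0 rose (median -0.41), with Polr1a, the large subunit of RNA polymerase I, at -0.86 and the nucleolar GTPase Gnl3 at -0.83. Myc went from 448 ± 28 to 10.2 ± 1.8 CPM (-5.46). The counts do not separate the cell's own Myc from any delivered copy. Larp1 was at -0.43. Fibroblast markers moved the opposite way, from at most 1326 CPM to between 3183 and 5232 CPM, and their part was not tested.

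In GFP+ cells of the same system ribosomal protein mRNAs fell from day 12 to day 14. All 74 values were below 0, from -0.59 to -0.03, with a median of -0.29 against 0.00 for all genes. In the test 41 fell and 0 rose, beside 16% of genes called lower and 14.5% called higher: 17 of 30 small subunit genes, 22 of 41 large subunit genes and 2 of 3 of the stalk. The day 14 libraries lay wholly below the day 12 libraries for 62 members, beside 25.6% of genes. Both groups lack the high-mitochondrial libraries, and 63 members fell when those were left out of the shared estimate of spread, beside 19% of genes. Without replicate 3 of either group 20 fell, with the share of all genes in those fits not given here.

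Rps20, a small subunit protein, had 934, 811 and 943 CPM at day 12 and 593, 632 and 557 CPM at day 14, and fell by 0.59 ± 0.12 (edgeR adjusted p = 0.00097). Rplp0, the base of the stalk, went from 1832, 1747 and 2027 CPM to 1294, 1328 and 1265 CPM and fell by 0.53 ± 0.11 (edgeR adjusted p = 0.0011). Rpl12, its neighbour at the foot of the stalk, went from 1408, 1281 and 1514 CPM to 977, 1037 and 945 CPM and fell by 0.51 ± 0.09 (edgeR adjusted p = 0.00019). None of these groups overlapped. Rpl3, at the peptidyl transferase centre, fell by 0.50, Rpsa by 0.40, Rplp1 by 0.38 and Rpl22 by 0.37. Rplp2 (-0.26) and Rps19 (-0.31), the gene most often mutated in Diamond-Blackfan anaemia, did not pass (edgeR adjusted p = 0.16 and 0.056), although their day 14 libraries were all below those of day 12. Rpl41 was at -0.03, with overlapping groups. Relative to the members' sum, 3 rose and 2 fell, with the share of all genes under that scaling not given here. Among other genes, 9 of 18 translation factors fell and 0 rose, with Eef2 at -0.49, while of 74 mitochondrial ribosomal proteins 14 rose and 6 fell. Myc went from 305 ± 50 to 7.90 ± 1.5 CPM. Fibroblast markers were 558 to 1086 CPM at day 12 and 1625 to 2685 CPM at day 14, and their part was not tested.

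**Figure D3:**
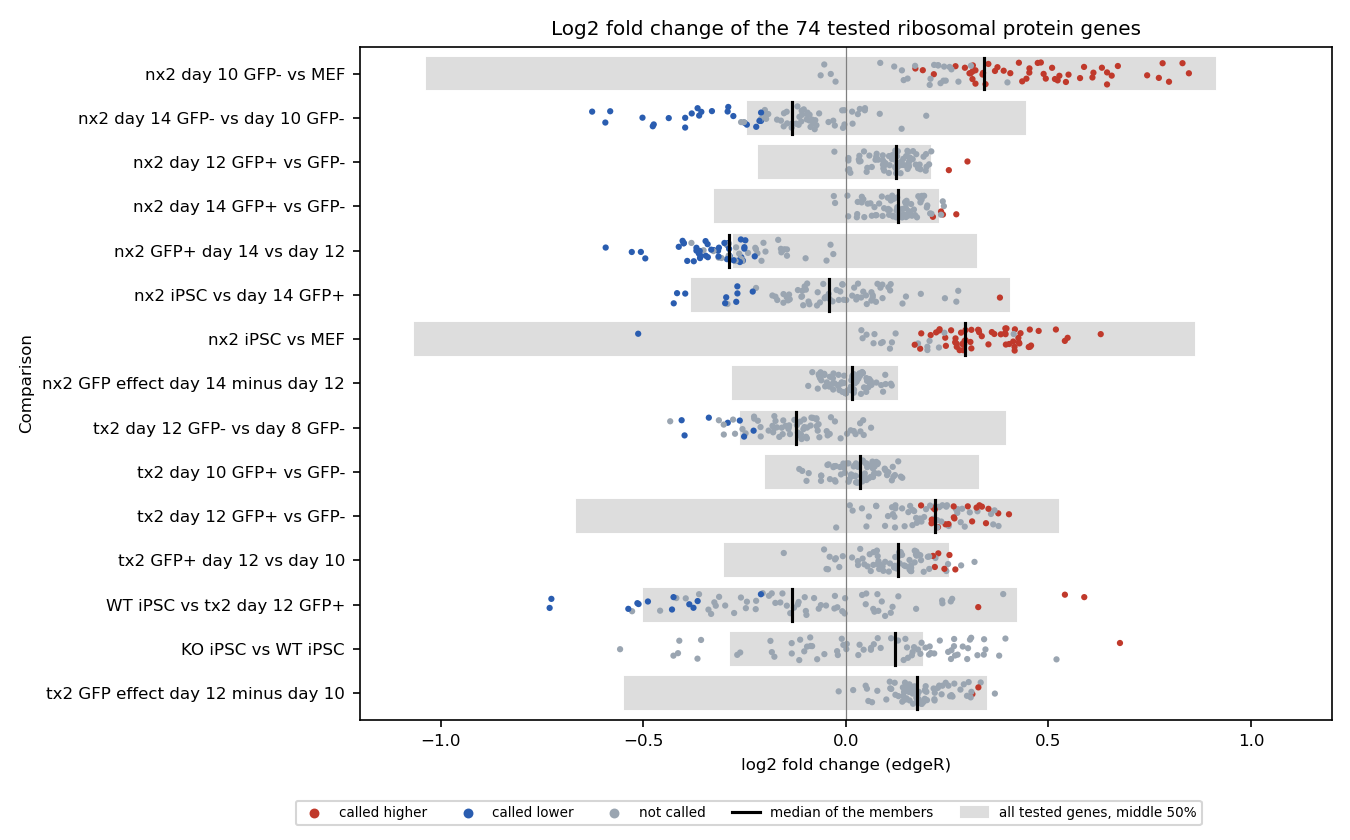
Log2 difference of each of the 74 tested members (dots) in each comparison, coloured red where called higher, blue where called lower and grey where not called, with the member median as a black line and the middle 50% of all genes tested as a grey band. The fall of GFP+ cells from day 12 to day 14 (median -0.29) places all 74 members below 0, and the day 10 to MEF comparison places 70 of 74 above it.

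The next comparisons set GFP+ beside GFP- cells of the same day, which asks how members differ with the Pou5f1 reporter on. In naivex2 cells the differences were small and nearly all positive. At day 12, 2 members rose and 0 fell, beside 9.93% of genes called higher and 6.69% called lower, although 73 of 74 values were above 0 (median 0.12, against 0.00 for all genes). Rpl12 had 1102, 1118 and 1193 CPM in GFP- and 1408, 1281 and 1514 CPM in GFP+ cells (0.30 ± 0.09, edgeR adjusted p = 0.022). Rps23, a small subunit protein of the decoding centre, had 421, 420 and 448 CPM in GFP- and 514, 469 and 555 CPM in GFP+ cells (0.25 ± 0.07, edgeR adjusted p = 0.011), and neither pair of groups overlapped. GFP+ libraries lay wholly above GFP- libraries for 12 members, beside 20.5% of genes. Without replicates 1 or 2 of GFP- or replicate 3 of GFP+ the count was 0, and without replicate 1 of GFP+ it was 1. For these fits the share of all genes is not given here. Without the 2 high-mitochondrial libraries, which are in neither group, the count was 6, beside 11.7% of genes called higher.

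At day 14, 4 members rose and 0 fell, beside 14.4% of genes called higher and 16.9% called lower, and 72 of 74 values were above 0 (median 0.13, against -0.02). Rps23 went from 351, 382 and 352 CPM to 420, 435 and 404 CPM (0.21 ± 0.07, edgeR adjusted p = 0.018), without overlap. Rps24 (0.27), Rpl12 (0.24) and Rps28 (0.24), of which Rps24 is another Diamond-Blackfan gene, were the other 3. GFP+ libraries lay wholly above for 35 members, beside 24.6% of genes. The count was 0 without replicates 1 or 3 of GFP- or replicate 2 of GFP+ and 1 without replicate 1 of GFP+. For those fits the share of all genes is again not given. Leaving out the 2 high-mitochondrial libraries, in neither group, made the count 32, beside 18.3% called higher. The difference between the day 14 and day 12 effects was called for 0 members in either direction (median 0.01), beside 0.688% and 0.855% of genes; DESeq2 called 0, and 0 had an unadjusted p under 0.05 in the edgeR test. At day 12 the fibroblast markers were 894 to 1412 CPM in GFP- cells, overlapping the GFP+ range, and at day 14 they were higher in GFP- cells, as given above. Their part was not tested.

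In totalx2 cells the sorted fractions were compared at days 10 and 12. Over all genes, 22.4% were called in either direction at day 10 and 61.6% at day 12. At day 10, 0 members were called in either direction, beside 13% of genes called higher and 9.36% called lower, and the median was 0.03 against 0.04 for all genes. DESeq2 called 0 and 0 had an unadjusted p under 0.05 in the edgeR test. Libraries did not overlap for 3 members (Rps29, Rpl22 and Rps12, all higher in GFP+ cells), beside 22.2% of genes. At day 12, 21 members rose in GFP+ cells and 0 fell, beside 31.2% of genes called higher and 30.4% called lower, with 73 of 74 values above 0 and a median of 0.22 against 0.05 for all genes. In the small subunit 6 of 30 genes were called and in the large subunit 15 of 41. GFP+ libraries lay wholly above for 63 members, beside 38.0% of genes, and without the wild type iPSC library of high mitochondrial share, which is in neither group, 46 rose and 0 fell, beside 34.0% called higher.

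Rpl4 had 2198, 2117 and 2067 CPM in day 12 GFP- cells and 2784, 2687 and 2811 CPM in day 12 GFP+ cells (0.38 ± 0.11, edgeR adjusted p = 0.0048). Rpl14, of the large subunit, went from 425, 441 and 427 CPM to 545, 556 and 550 CPM (0.35 ± 0.09, edgeR adjusted p = 0.0026). Rpl22 went from 442, 430 and 441 CPM to 554, 529 and 586 CPM (0.35 ± 0.08, edgeR adjusted p = 0.00061). These 3 pairs of groups did not overlap. Rpl8, of the large subunit, had the largest difference (0.40 ± 0.17, edgeR adjusted p = 0.049), and it was called in 6 of 15 alternative settings. Leaving out any one library but replicate 2 of GFP+ brought the count of 21 down to between 6 and 11. How many of all genes those fits called is not given here, so these counts show only their dependence on the setting. Of 40 assembly genes 37 rose and 0 fell (median 0.58), with Rrn3, the polymerase I initiation factor, at 0.92 and Ubtf at 0.68. Mitochondrial ribosomal proteins rose in 40 of those tested and fell in 0 (median 0.33). Mycn went from 26.1 to 151 CPM (2.52), Myc from 554 to 345 CPM (-0.68), and the Myc antagonist Mxd4 was at -2.36. Fibroblast markers were 9167 to 12336 CPM in GFP- and 2153 to 2582 CPM in GFP+ cells, and their part was not tested.

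The change of the GFP effect between these days was tested itself. It was called for 2 members, Rpl5 and Rps23, both with a larger effect at day 12, and for 0 in the other direction, beside 10.5% and 16.7% of genes, with 73 of 74 values above 0 (median 0.18 against 0.01). Rpl5, which carries a small ribosomal RNA into the large subunit, had 668, 615 and 592 CPM in GFP- and 600, 591 and 607 CPM in GFP+ cells at day 10, overlapping, but 586, 589 and 565 CPM against 689, 696 and 709 CPM at day 12, without overlap. Rps23 had 348, 337 and 315 CPM against 345, 330 and 342 CPM at day 10, and 329, 333 and 290 CPM against 406, 383 and 414 CPM at day 12. The difference of effects was 0.33 ± 0.11 for Rpl5 and 0.31 ± 0.11 for Rps23 (edgeR adjusted p = 0.034 and 0.038). The count moved with the setting: 0 or 1 members were called without any one of 11 of the 12 libraries, 0 with no low-count filter and 0 relative to the members' sum. It was 4 with the 3 lines as a block, which pairs libraries of the same line, and 9 with DESeq2. Without the 2 high-mitochondrial libraries it was 12, beside 16.5% of genes called higher. With only the groups of the contrast fitted it was 27. The shares of all genes in the other alternative fits are not given here. These counts show only their dependence on the setting. Of 40 assembly genes 30 had a larger GFP effect at day 12 (median 0.52).

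The totalx2 cells were also compared over time. In GFP- cells 7 members fell from day 8 to day 12 and 0 rose, beside 14.5% of genes called lower and 17.1% called higher (median -0.12 against 0.02), 2 of the small and 5 of the large subunit. Rpl41 had 389, 435 and 439 CPM at day 8 and 307, 329 and 318 CPM at day 12 and fell by 0.41 ± 0.09 (edgeR adjusted p = 0.0013). Rpl7a fell by 0.40, Rpl19 by 0.34 and Rps23 by 0.29. Day 12 libraries lay wholly below for 41 members and wholly above for 0, beside 24.5 and 26.7% of genes. Without the high-mitochondrial wild type library, in neither group, 21 fell, beside 17.9% called lower. Without replicates 2 or 3 of day 8 or any one of day 12 the count was 3 or 4. For these latter fits the share of all genes is not given here. Beside them, 34 of 40 assembly genes fell and 0 rose (median -0.50), with Rrs1 at -0.88 and Bysl at -0.79, and 46 mitochondrial ribosomal proteins fell and 1 rose (median -0.42). Fibroblast markers were 13031 to 20253 CPM at day 8 and 9167 to 12336 CPM at day 12, and their part was not tested.

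In GFP+ cells 6 members rose from day 10 to day 12 and 0 fell, beside 12.2% of genes called higher and 12.9% called lower, with 65 of 74 values above 0 (median 0.13 against 0.00). Rpl23a, near the mouth of the exit tunnel, had 329, 301 and 329 CPM at day 10 and 378, 363 and 415 CPM at day 12 (0.27, edgeR adjusted p = 0.015). Rpl22 (0.26), Rps23 (0.24) and Rps27a, made as a fusion with ubiquitin (0.23), also rose. Day 12 libraries lay wholly above for 49 members and wholly below for 2, beside 23.2 and 21.7% of genes. The count was 0 to 3 without any one of the 6 libraries, with the share of all genes in those fits not given here. It was 17 higher with 1 lower without the high-mitochondrial wild type library, beside 16.1 and 16.9% of genes. Fibroblast markers were 4314 to 11450 CPM at day 10, above the day 12 range, and their part was not tested.

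Established naivex2 iPSC, set beside day 14 GFP+ cells, had 1 member higher and 9 lower, beside 24.3% of genes called higher and 22.5% called lower (median -0.04 against 0.02). The 1 that rose was Rplp0, from 1294, 1328 and 1265 CPM to 1859, 1692 and 1508 CPM (0.38 ± 0.11, edgeR adjusted p = 0.0076). Rps28, of the small subunit, went from 332, 354 and 311 CPM to 271, 245 and 231 CPM and fell by 0.42 ± 0.08 (edgeR adjusted p = 0.00042). Rpl13a went from 77.9, 75.3 and 75 CPM to 56.5, 60.6 and 52.8 CPM and fell by 0.42 ± 0.12 (edgeR adjusted p = 0.0054), and Rps19 fell by 0.40. None of these 4 pairs of groups overlapped. Without the 2 high-mitochondrial libraries, in neither group, 5 rose and 18 fell, beside 26.1 and 25.2% of genes; libraries did not overlap for 10 higher and 16 lower, beside 27.1 and 26%. Of 40 assembly genes 26 were higher and 0 lower (median 0.35), among them Polr1a at 1.43 (264 CPM in iPSC), Heatr1 (0.64) and Gnl3 (0.61), and 7 of 18 translation factors were higher and 0 lower. Fibroblast markers were 1254 to 3332 CPM in iPSC, a range that holds that of day 14 GFP+ cells.

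Against MEF, these iPSC had 56 members higher and 1 lower, beside 37.9% of genes called higher and 39.4% called lower (77.3% either way), with 73 of 74 values above 0 (median 0.29 against 0.02). Rpl22 went from 310, 313 and 310 CPM to 535, 469 and 439 CPM (0.63 ± 0.07, edgeR adjusted p = 9.7e-08). Rpl8 (0.55), Rpl3 (0.54) and Rpl5 (0.52) followed. The 1 that fell was Rpl13a, from 83.5, 77.2 and 81.6 CPM to 56.5, 60.6 and 52.8 CPM, by 0.51 ± 0.12 (edgeR adjusted p = 0.00045), and under unscaled library totals it was at -0.22 (edgeR adjusted p = 0.055) and not called. Libraries lay wholly above for 66 members and wholly below for 1, beside 39.3 and 40.7% of genes. Relative to the members' sum 2 rose, Rpl22 (0.32) and Rpl8 (0.23), and 8 fell, led by Rpl13a (-0.82). The share of all genes under that scaling is not given here. Under unscaled library totals the median over all tested genes was 0.31 in place of 0.02, and that over the members was 0.59 in place of 0.29. Of 40 assembly genes 35 rose and 1 fell. The part of the lower fibroblast markers was not tested here either.

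Wild type iPSC of the second table, set beside totalx2 day 12 GFP+ cells, come from another cross, so line and stage cannot be told apart. In this comparison 3 members were higher and 12 lower, beside 25% of genes called higher and 26% called lower (median -0.13 against -0.01), and without the library with 12.2% mitochondrial counts 5 were higher and 14 lower, beside 24.5 and 25.5%, with a median of 0.00. Of the calls, 10 were made both with and without it. Rps19 had 504, 498 and 510 CPM in day 12 GFP+ cells and 135, 424 and 350 CPM in iPSC, with the lowest value in that library (log2 difference -0.73, and -0.37 without it). Rps24 went from 532, 553 and 582 CPM to 1018, 746 and 663 CPM (0.54 ± 0.11, edgeR adjusted p = 0.00032, and 0.36 without it). Rpl41 had 351, 366 and 399 CPM against 456, 513 and 431 CPM (0.33, and 0.36 without it). Rpl36 was at -0.54, and -0.27 without it. Rpl35 (0.59 with all libraries, 0.22 without it) and Rplp2 (-0.51, and -0.18 without it) were no longer called (edgeR adjusted p = 0.053 for both), as were Rpl15, Rpl10a and Rps9. Libraries did not overlap for 2 higher and 13 lower, beside 25.8 and 28.6% of genes, and for 6 higher and 18 lower without that library, beside 33.6 and 36.3%. The count was 6 without replicate 3 of day 12 GFP+ and 40 without replicate 2 of wild type. The shares of all genes in those fits are not given here.

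The knockout comparison set iPSC without TET1, the methylcytosine oxidase, beside wild type iPSC. The labels name no line that wild type and knockout share, so genotype and line cannot be told apart. Tet1 itself had 1303, 823 and 874 CPM in wild type and 54.3, 58.6 and 57.3 CPM in knockout lines (-4.14), so the libraries match their labels. Fibroblast markers were 1656 to 1998 CPM in wild type and 1813 to 2492 CPM in knockout lines. Of the members 1 was higher and 0 lower in knockout lines, beside 4.78% of genes called higher and 5.87% called lower, with a median of 0.12 against -0.04. Without the high-mitochondrial wild type library the count was again 1 and 0, beside 5.31 and 6.06%, with a median of -0.02. There were 23 calls (20 higher and 3 lower) without replicate 2 of wild type, and 8 (1 higher and 7 lower) without replicate 3. Each of these fits leaves the high-mitochondrial library as 1 of a pair. At an unadjusted p under 0.05 in the edgeR test, 5 members were higher and 7 lower. The shares of all genes for these counts are not given here, so the counts show only their dependence on the setting. Libraries did not overlap for 2 members, Rpl26 and Rps2, both higher in knockout lines, beside 13.4% of genes, and for 3 higher and 1 lower without that library, beside 22.5 and 24.8%. Rps2 had 166, 529 and 439 CPM in wild type and 548, 536 and 546 CPM in knockout lines (0.52, not called), its lowest value again in that library.

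The 1 call was Rpl26 (ENSMUSG00000060938.14, chr11:68901583-68906989 on the + strand of GRCm38), a large subunit protein at the tunnel exit that also binds p53 mRNA. It had 187, 271 and 205 CPM in wild type and 339, 337 and 384 CPM in knockout lines, without overlap, a log2 difference of 0.68 ± 0.10 (edgeR adjusted p = 0.00031). Reads of this gene can also fit Gm15772, a processed copy whose 438 annotated bases align to the Rpl26 mRNA with 99.543% identity. The 2 differ by 2 substitutions, C224T and T335C, counted from 1 at the 5′ end of the 526-base Rpl26 transcript, both within its coding bases 48 to 482, and within the aligned bases only reads over those positions can tell the 2 genes apart. They are shown with the differing base in capitals and 15 or fewer bases on each side, first bases 209 to 238 and then bases 320 to 349 of the transcript.
Rpl26, around base 224: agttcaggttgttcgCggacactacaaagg
Gm15772, around base 224: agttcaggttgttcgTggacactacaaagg
Rpl26, around base 335: tggcacaaccgtccaTgtgggcatccaccc
Gm15772, around base 335: tggcacaaccgtccaCgtgggcatccaccc

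The copy was low where the gene was high. Gm15772 had 82.4, 135 and 105 CPM in wild type and 18.5, 18.3 and 23.1 CPM in knockout lines, so that it took 30.6, 33.2 and 33.8% of the sum of both in wild type and 5.17, 5.16 and 5.68% in knockout lines. The sums were 269, 405 and 310 CPM in wild type and 358, 355 and 407 CPM in knockout lines and overlapped. With every near-identical copy added to its member, the difference of Rpl26 was 0.18 (edgeR adjusted p = 0.31) and 0 members were called. The same split divided the lines of the first table. The copy took 32.3 to 37.8% of the sum in replicates 1 and 3 of its 6 groups before iPSC and 5.09 to 5.54% in replicate 2, whatever the group. In naivex2 iPSC it took 35.6, 36.5 and 4.98% in replicates 1, 2 and 3, and in all totalx2 libraries it took 3.82 to 6.38%. Against totalx2 day 12 GFP+ cells, Rpl26 was at -0.73 in wild type iPSC, and at -0.20 with copies added (edgeR adjusted p = 0.13).

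**Figure D4:**
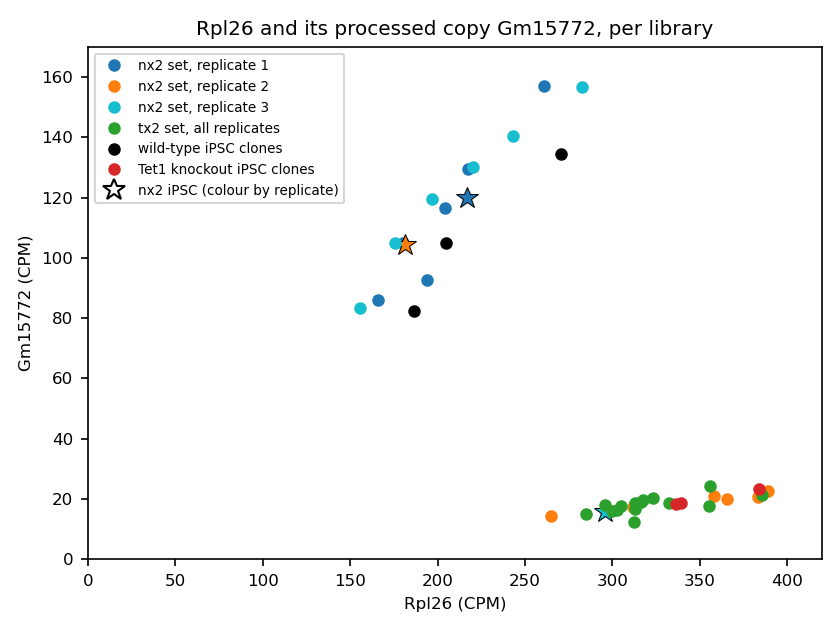
Scaled CPM of Rpl26 (horizontal axis) against its processed copy Gm15772 (vertical axis), 1 point for each library, coloured by replicate for naivex2 (nx2) and by set for totalx2 (tx2), wild type and knockout libraries, with stars for naivex2 iPSC. Libraries fall in a set with a low copy, including all totalx2 and knockout libraries (3.82 to 6.38% of the sum), and a set with a high copy, including all wild type iPSC (30.6 to 33.8%).

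Rpl26 was the clearest of a general case. In GENCODE M21, 375 pseudogene copies matched a member's mRNA at 95% identity or more over at least 50% of its length, yet they held only 0.054 to 0.126% of all counts of a library. The copies took 29.0 and 29.2% of the sum of member and copy for Rpl14 in the first and second table (1 copy), 15.9 and 14.3% for Rpl38, and 11 and 8.13% for Rpl23a. For other members the share differed between sets of lines. The copies of Rplp0 took 0.956 to 1.83% in naivex2 libraries, 15.3 to 18.1% in totalx2 libraries and 1.28 to 2.31% in wild type and knockout iPSC. Those of Rpl15 took 1.39 to 3.45% in replicate 1 of the naivex2 groups and 11.6 to 13.9% in replicates 2 and 3, 0.825 to 1.59% in totalx2 libraries, 10.6 to 11.9% in wild type iPSC and 1.52 to 2.24% in knockout iPSC. Differences of Rplp0 and Rpl15 between totalx2 cells and wild type iPSC therefore hold this split. In the totalx2 day 12 comparison, adding the copies gave 11 higher and 1 lower in place of 21 and 0. In the fit without added copies, 31.2% of genes were called higher and 30.4% lower. The lower member was Rpl13, whose counts then came from copies alone.

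The 2 high-mitochondrial libraries were alike in how their members departed from the other replicates of their groups. In replicate 1 of naivex2 day 10 GFP- 48 of 74 members lay below the mean of the other two libraries, and in replicate 1 of wild type iPSC 53 did (median log2 deviations -0.32 and -0.50). The SD of the deviations over members was 0.51 and 0.72, while the other two libraries of each group differed by an SD of only 0.10. Over the 74 genes the deviations correlated with Pearson's r = 0.92 and Spearman's rho = 0.91, and 69 had the same sign, although the libraries belong to other systems and batches; the genes are not independent replicates. Rps14, a small subunit protein lost in 5q- syndrome, had 219, 620 and 630 CPM in day 10 GFP- cells and 110, 756 and 550 CPM in wild type iPSC, deviations of -1.51 and -2.54. Rps2 (-1.02 and -1.53), Rpl18 (-0.99 and -1.50) and Rps19 (-0.66 and -1.51) were low in both. Rpl35 (0.86 and 0.95), Rps6 (0.61 and 0.97) and Rps26 (0.62 and 0.90) were high in both, whereas Rpl22 hardly moved (0.10 and 0.03). The deviations had r = -0.28 and -0.40 with the GC content of the mRNA and -0.06 and -0.05 with coding length. The part of these features, of depth or of RNA quality in the deviations was not tested.

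**Figure D5:**
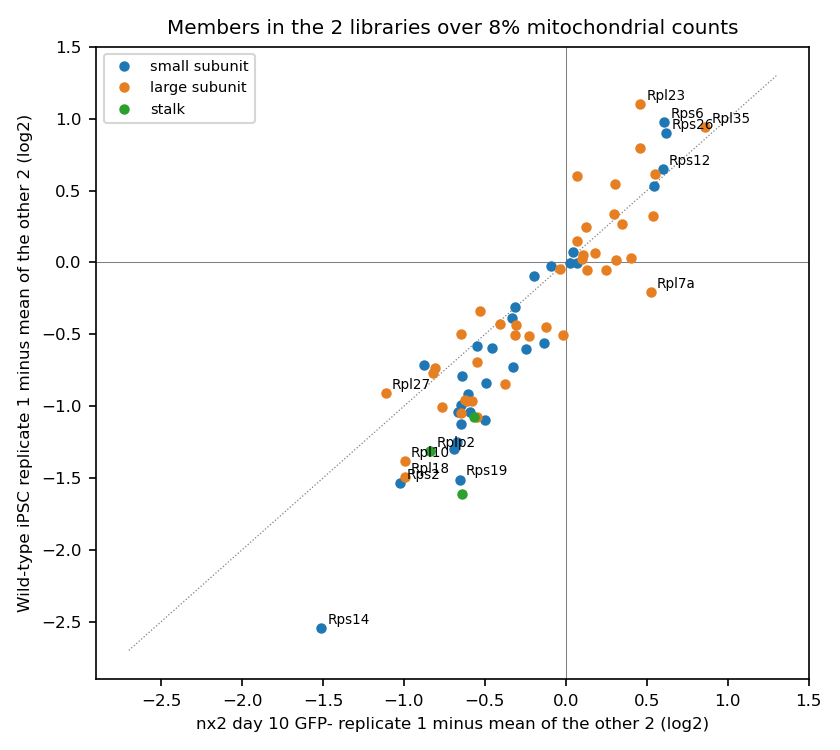
Log2 deviation of each of 74 members in replicate 1 of naivex2 day 10 GFP- cells (horizontal axis) and of wild type iPSC (vertical axis) from the mean of the other two libraries of its group, with equality dotted. Points run along 1 band (r = 0.92), from Rps14 at -1.51 and -2.54 to Rpl35 at 0.86 and 0.95.

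Of the relatives of the members, kept outside the 76, 3 had large differences between GFP+ and GFP- cells (the third, Rpl10l, was near the floor in GFP- cells). Rps4l, a retrocopy relative of Rps4x, went from 80.4 to 200 CPM between GFP- and GFP+ naivex2 cells at day 12 (1.31), from 151 to 308 CPM at day 14 (1.03) and from 54.7 to 203 CPM in totalx2 cells at day 12 (1.89). Rpl39l went from 5.04 to 13.4 CPM (1.40), from 9.64 to 21 CPM (1.12) and from 4.81 to 19.5 CPM (2.05) in the same 3 comparisons. Of the 10 relatives tested, 4, 4 and 6 were higher and 0 lower in these comparisons. Of all genes, 9.93, 14.4 and 31.2% were called higher there and 6.69, 16.9 and 30.4% lower. The members' medians there were 0.12, 0.13 and 0.22. The difference of GFP effects between totalx2 days was called for Rpl39l (1.32) and Rps4l (0.94).

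By the rule of likeness to the mean of the members over 7 groups, the non-members closest in the first table were Gm9294, a processed copy of Rps4x (r = 0.99), Gm15772 (0.99), the nucleoporin Nup188 (0.98), Adhfe1 (0.98) and Polg2 (0.98), with 313 genes above 0.9. In the second table they were Isoc1 (0.98), Atp6v1f (0.97), Atp5g2 (0.96), Aldh18a1 (0.95) and Cox6a1 (0.95), with 12 above 0.9. With 7 points these values only describe.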

How the data were processed

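Poly(A) RNA was sequenced with a stranded kit. The authors deposited raw counts per gene in 2 tables, made with HISAT2 2.1.0 and featureCounts 1.5.3 on mm10 per the submitters' processing notes; per the file headers reads were counted over whole gene bodies, introns included, on the reverse strand, and reads that fit several genes were not assigned. Here edgeR 4.0.16 in R 4.3.3 was run once per table over its 21 libraries (filterByExpr, TMM, robust quasi-likelihood F test, Benjamini-Hochberg over 16132 and 15197 genes, call at an adjusted p of 0.05), with no covariate. CPM use TMM-scaled library totals, log2 levels use a prior count of 2, and SE is the log2 difference over the root of F. DESeq2 1.42.0 was an alternative. Copies and overlaps were found with BLAST 2.17.0 in GENCODE M21, while the first table's header names M10, so gene models may differ. The tests were tried on simulated counts. Members, lists and rules were chosen with earlier results of these data known. Named members were the 4 largest rises and falls called in each comparison, the 3 with the highest and lowest levels and spread, and Rplp0, Rplp1, Rplp2, Rpsa, Rps6, Rps19, Rpl5, Rpl11, Rpl10, Rps4x, Rpl22 and Rpl38; others were picked after their values were seen. Replicates of the naivex2 and totalx2 groups are shared lines, per the labels: all 30 pairs of same-line totalx2 libraries correlated above 0.1 in their deviations (0.126 to 0.593), but only 32 of 63 naivex2 pairs (-0.121 to 0.359). Wild type and knockout lines share a title prefix and, per the labels, replicate numbers, but no line name. P-values measure the spread between libraries of a group, which come from different lines. That spread is pooled over all groups of a table, including its high-mitochondrial library, and libraries are not paired by line. No column was left unmapped.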

Additional observations from a re-analysis of the deposited data

Results flagged for a closer look

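For Rpl5 and Rps23 the difference between GFP+ and GFP- totalx2 cells was not the same at day 12 as at day 10, by the edgeR test of that difference itself: 0.33 for Rpl5 and 0.31 for Rps23 on the log2 scale, larger at day 12. At day 10 the differences were -0.06 and 0.02 and at day 12 they were 0.27 and 0.34. All 3 lines were higher in GFP+ cells at day 12 for both genes. Rpl5 was called in 9 and Rps23 in 10 of 21 alternative settings, so both calls are close to the threshold.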

How the results depend on the processing

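No called member changed sign under another setting, apart from scaling to the members' sum. With the replicate block, pairing libraries by number, 26 members were called for wild type iPSC against totalx2 day 12 GFP+, 2 for knockout against wild type (which share numbers but no line name) and 4 for the totalx2 change of GFP effect; no other count moved by over 1.5 times. In the order naivex2 day 14 against day 10 GFP-, GFP+ against GFP- at day 12 and at day 14, GFP+ day 14 against day 12, totalx2 GFP- day 12 against day 8, GFP+ against GFP- at day 12, GFP+ day 12 against day 10 and change of GFP effect, using only the groups compared gave 8, 10, 39, 62, 25, 56, 26 and 27 calls, and leaving out the 2 high-mitochondrial libraries gave 53, 6, 32, 63, 21, 46, 18 and 12; both change the estimate of spread. Scaling to the members' sum gave 5, 0, 0, 5, 2, 0, 0 and 0, with 24 for day 10 against MEF (21 when the high-mitochondrial library was left out too) and 10 for naivex2 iPSC against MEF. For wild type iPSC against day 12 GFP+ and knockout against wild type the groups alone gave 2 and 0, and for naivex2 iPSC against day 14 GFP+ leaving out both libraries gave 23 and library totals alone 16. Library totals alone gave 1 and 2 for naivex2 GFP at days 12 and 14, 8 for totalx2 GFP at day 12 and 1 for totalx2 GFP+ over time. No low-count filter gave 0 for naivex2 GFP at day 14, 3 for totalx2 GFP- over time, 8 for totalx2 GFP at day 12, 1 for GFP+ over time and 0 for its change. DESeq2 gave 11 and RLE scaling 8 for naivex2 GFP at day 14, and DESeq2 gave 9 for the totalx2 change. Copies added gave 12 for totalx2 GFP at day 12 and 0 for the knockout. The cause of these shifts was not tested. Leaving out 1 replicate at a time gave 44 to 69 for day 10 against MEF, 18 to 53 for day 14 against day 10 GFP-, 0 to 2 and 0 to 4 for naivex2 GFP at days 12 and 14, 20 to 43 for GFP+ day 14 against day 12, 8 to 13 for iPSC against day 14 GFP+, 43 to 56 for iPSC against MEF, 3 to 6 for totalx2 GFP- over time, 0 to 0 and 6 to 14 for totalx2 GFP at days 10 and 12, 0 to 3 for GFP+ over time, 6 to 40 for wild type iPSC against day 12 GFP+, 1 to 23 for the knockout, and 0 to 0 and 0 to 2 for the changes of GFP effect. The change of the totalx2 GFP effect fell to 0 or 1 without any one of 11 of its 12 libraries. Most counts in this section stand without the share of all genes called in the same fit. They show only how the counts depend on the setting. Every tested member lay above the floor of 3 counts, and depth was not tested otherwise.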

Other observations

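Rpl29 was the member that differed most between totalx2 lines. It had 64.4, 50.8 and 31.2 CPM in lines 1, 2 and 3 at day 8, and 55.7, 61.3 and 30.9 CPM in day 12 GFP+ cells, and line 3 was lowest in each of the 5 groups, with line means of 0.35, 0.28 and -0.63 relative to the group means in log2. In the first table the widest gap between lines was that of Rpl26 (0.76 in log2 between lines 1 and 2).

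Replicates 2 and 3 of naivex2 iPSC resembled each other's lines. Over 200 genes that differ between the naivex2 lines in the groups before iPSC, iPSC replicate 2 correlated with line 3 at 0.68 and with its own at -0.38, and replicate 3 with line 2 at 0.84 and with its own at -0.32, while replicate 1 matched its own line at 0.76. All other naivex2 libraries matched their own line at 0.58 to 0.95. The 200 genes were chosen in those libraries, so that match was partly fixed in advance. Only the iPSC libraries lay outside the choice. The share of the Gm15772 copy in those 2 iPSC libraries (36.5 and 4.98%) followed the same order. The groups are not touched by this, and the replicate block treats these libraries as their labels number them.

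Rpl10l, a germline relative of Rpl10 on an autosome, had 0 CPM in all MEF libraries and 0.154 CPM, near the floor of 3 counts, in totalx2 day 12 GFP- cells, against 24.8 CPM in day 12 GFP+ cells.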
